A study of Mus musculus with 3 samples.

Results

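Serine/arginine-rich (SR) proteins and heterogeneous nuclear ribonucleoproteins (hnRNPs) are the RNA-binding proteins that select splice sites in most pre-mRNAs, and their genes were described here by level and by transcript kind. Every gene whose symbol starts with Srsf or Hnrnp and that has a protein-coding transcript was taken, apart from 1 not analysed here. This gave 30 genes, 11 SR and 19 hnRNP, of 21888 protein-coding genes of the nuclear genome. The libraries were ribosomal-RNA-depleted total RNA-seq from the cytosolic fraction of C57BL/6J bone marrow-derived macrophages, cultured phagocytes grown from marrow. The cells had Lipid A, the toll-like receptor 4 ligand of bacterial lipopolysaccharide, at 100 ng/ml for 12 h, then 12 h without it, then Lipid A again at 100 ng/ml for 25 min. All 3 libraries belong to this 1 group and each started from 1 µg of RNA. The labels number them as biological replicates 1 to 3 but give them the same donor entry, so the spread between them may be technical. No untreated, other time or nuclear sample was analysed here, and no value below is an effect of Lipid A. With 1 group no test was run, and each value is given with its spread over the 3 libraries.

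SR proteins bind exonic enhancers and mostly promote the inclusion of exons, whereas many hnRNPs bind intronic or exonic silencers and repress it, and several of both families shuttle between nucleus and cytoplasm. Many of their genes limit their own output through alternative splicing. A cassette exon that holds a stop codon, or an intron removed from the 3′ untranslated region, leaves an exon junction downstream of the stop, and such a transcript is a substrate of nonsense-mediated decay (NMD), which acts on translated mRNA in the cytoplasm. Transcripts that keep an intron are mostly held in the nucleus. The terms "NMD transcript" and "retained-intron transcript" below are the annotation's labels (GENCODE M21, build mm10) and not a measurement of decay or of nuclear retention.

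The 30 genes had 271 annotated transcripts, of which 129 were protein coding, 31 were NMD transcripts from 18 genes and 74 were retained-intron transcripts from 21 genes. Neither kind was annotated for 7 genes (Srsf10, Srsf12, Hnrnpa0, Hnrnpab, Hnrnpf, Hnrnph1 and Hnrnph2). The NMD transcripts had their stop codon in one of 2 arrangements. In 22 of them, from 13 genes, the stop codon was used by no coding transcript of the gene. In the other 9, from 6 genes, it was also the stop of a coding transcript. The end of the reading frame is printed below for examples of both, from the start of the exon that holds the stop codon to the stop codon itself, which is in capitals. All sequences are from the GENCODE M21 transcripts, 5′ to 3′ on the transcribed strand.

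The first set shows cassette exons that lie between the exons of the leading coding transcript, the coding transcript with the highest level, and that bring in a stop codon. The exon of Srsf3-201 is 456 bases long and its printed part lies at chr17:29039454-29039487 on the plus strand. The exon of Srsf6-201 is 268 bases long, with the printed part at chr2:162932815-162932966, plus strand. A short coding transcript, Srsf6-202, has the same stop codon but was at 0 TPM in both transcript tables. By that shared stop codon Srsf6-201 counts among the 9. The exon of Srsf7-203 is 460 bases long (chr17:80205054-80205081, minus strand), that of Srsf11-206 109 bases (chr3:158024209-158024231, minus strand), that of Hnrnpl-213 70 bases (chr7:28817335-28817393, plus strand) and that of Hnrnpll-203 83 bases (chr17:80044976-80045022, minus strand).
Srsf3-201: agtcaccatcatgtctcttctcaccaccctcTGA
Srsf6-201: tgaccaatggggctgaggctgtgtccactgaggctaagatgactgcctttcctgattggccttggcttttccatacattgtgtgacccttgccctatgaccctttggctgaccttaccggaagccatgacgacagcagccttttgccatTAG
Srsf7-203: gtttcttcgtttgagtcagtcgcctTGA
Srsf11-206: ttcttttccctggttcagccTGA
Hnrnpl-213: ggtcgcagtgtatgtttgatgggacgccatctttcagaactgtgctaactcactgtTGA
Hnrnpll-203: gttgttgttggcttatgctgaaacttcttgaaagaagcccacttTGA
In these 6 transcripts the stop codon ended 548, 534, 699, 456, 842 and 807 bases before the last exon junction, in the order printed.

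The second set shows NMD transcripts that end at the normal stop codon of the gene and differ after it, where a further exon junction follows. The printed parts lie at chr11:116852028-116852086 (minus strand) for Srsf2-204, chr15:103243959-103244014 (plus strand) for Hnrnpa1-203, chr6:51463432-51463493 (minus strand) for Hnrnpa2b1-207 and chr5:100036125-100036195 (minus strand) for Hnrnpdl-201. The annotated start of Srsf2-204 is incomplete, so its printed part begins inside an exon of the leading coding transcript.
Srsf2-204: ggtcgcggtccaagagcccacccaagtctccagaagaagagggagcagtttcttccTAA
Hnrnpa1-203: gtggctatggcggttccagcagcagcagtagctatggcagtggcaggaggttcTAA
Hnrnpa2b1-207: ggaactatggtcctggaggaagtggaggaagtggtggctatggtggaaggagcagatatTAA
Hnrnpdl-201: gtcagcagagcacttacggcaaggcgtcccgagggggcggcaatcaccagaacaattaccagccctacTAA
Here the stop codon ended 113, 90, 157 and 126 bases before the last junction. In the leading coding transcript of each of the 4 genes it ended 7, 14, 21 and 21 bases before the last junction, so the same letters lie close to the last junction in one transcript and further from it in the other. Hnrnpu-206 had another layout. Its stop codon lay in a 71-base exon inside the 3′ untranslated region of the leading coding transcript Hnrnpu-201, whose own stop codon is shown here.
Hnrnpu-201: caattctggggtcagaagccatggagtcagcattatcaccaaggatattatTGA
That part lies at chr1:178329354-178329407 (minus strand). Hnrnpu-206 is 2844 bases long with a coding part of 2379 bases, against 7640 and 2400 bases for Hnrnpu-201.

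**Figure D1:**
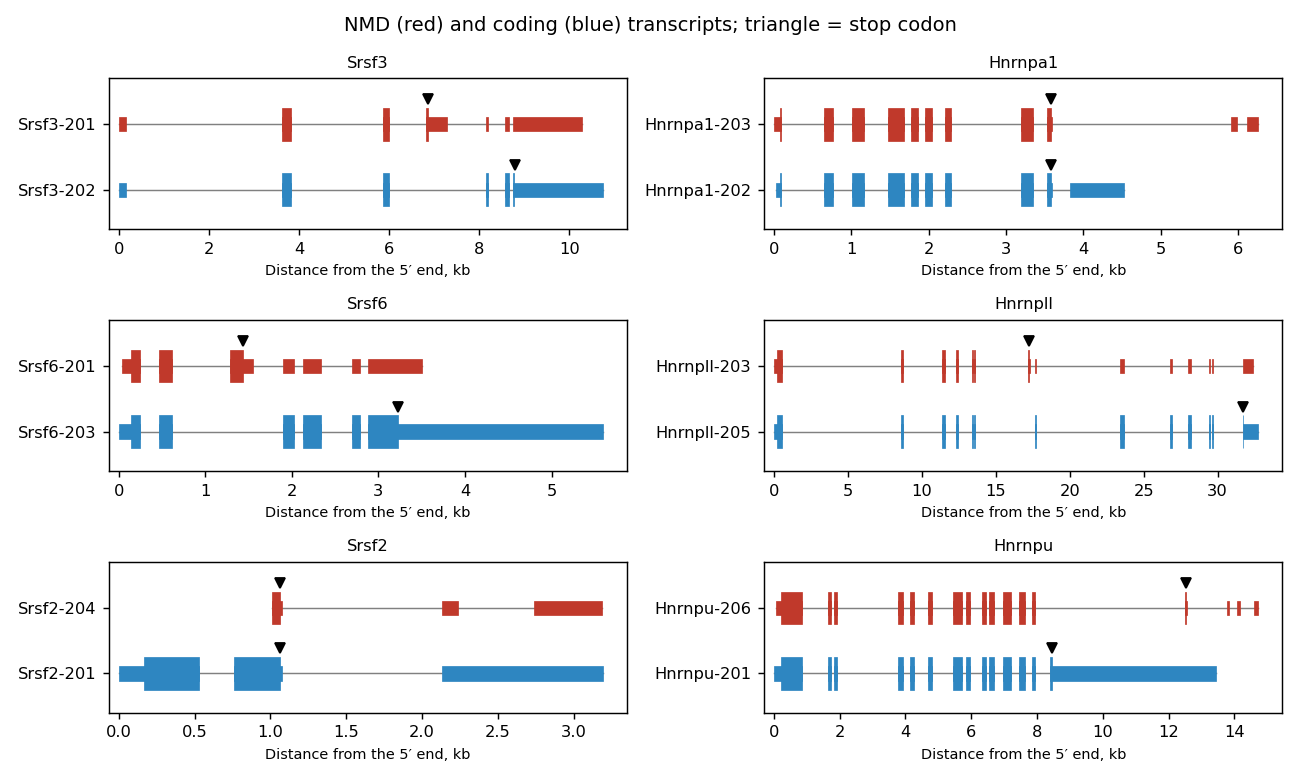
Exon maps of the annotated NMD transcript (red, upper) and the leading coding transcript (blue, lower) of 6 genes, drawn to scale against the distance in kb from the 5′ end of the drawn transcripts; tall boxes are coding, low boxes untranslated, lines introns and triangles the stop codon. In Srsf3, Srsf6 and Hnrnpll the NMD transcript has an extra exon with the stop codon, in Srsf2 and Hnrnpa1 the stop codon is shared and later exons differ, and in Hnrnpu the stop codon lies downstream of that of the coding transcript.

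The gene tables held 55517261, 21311556 and 45635014 expected counts in replicates 1 to 3, and the SR and hnRNP genes took 0.461%, 0.376% and 0.373% of the counts of protein-coding genes. Replicate 2 was the shallowest, and its values rest on the fewest reads. All 6 macrophage markers were present at a median of 523 ± 111 TPM (SD, n = 3). None of 15 markers of T cells, B cells, neutrophils, fibroblasts and erythroid cells reached 1 TPM in every library (summed level 0.35 to 0.50 TPM, with Ly6g listed at 0). Protein-coding genes took 29.6%, 40.4% and 34.8% of all TPM, the rest being RNAs of other kinds of gene, so that TPM here is not on the scale of a poly(A) library. Read-based TPM were mostly lower, with a median ratio of gene-table to read-based TPM of 2.06 over expressed coding genes, and their scale differed between libraries. Shares within a gene are free of that scale.

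Of the 30 genes, 29 had at least 1 TPM (a level per transcript length, scaled to a library sum of 1000000) in each of the 3 libraries, beside 42.4% of all protein-coding genes. The exception was Srsf12, an SR-related repressor of splicing, with 0 expected counts in each library of the gene tables; the limit that a count of 0 sets here is 0.0626, 0.153 and 0.0740 CPM for replicates 1 to 3 (counts scaled to 1000000 counts of protein-coding genes). For Srsf12 the read-based table held 16.9 estimated counts in replicate 1 and 0 in replicates 2 and 3. The median over SR genes was 20.0 ± 4.29 TPM and that over hnRNP genes 43.9 ± 2.48 TPM (SD, n = 3 libraries), and SR genes were lower by their medians of log2(TPM + 1) in all 3 libraries, by -0.997, -0.965 and -1.39 (mean -1.12 ± 0.24). The median over all 30 genes was 29.2 ± 2.02 TPM, against 0.197 ± 0.0351 TPM over all protein-coding genes. Limited to genes averaging 1 TPM or more, the medians were 30.2 ± 2.03 TPM for the 29 genes and 9.35 ± 1.38 TPM for 9595 protein-coding genes. In the top 10% of these 9595 genes stood 8 of the 29, 1 SR gene and 7 hnRNP genes.

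Among SR genes, Srsf2 (ENSMUSG00000034120.18, chr11:116849901-116853094, minus strand), which encodes SC35, a nuclear-speckle protein that binds exonic enhancers, was at 58.7, 81.3 and 44.6 TPM in replicates 1 to 3. Srsf5, another enhancer-binding member, was at 58.4, 66.0 and 46.6 TPM. The ranges of these leading SR genes overlapped, and every library of both lay above every library of the SR genes that followed. Srsf1, the founding member of the family, was at 29.3, 29.5 and 24.9 TPM. Srsf9 was at 27.2, 21.9 and 28.1 TPM. Srsf3 (ENSMUSG00000071172.13, chr17:29032628-29043373, plus strand), the smallest SR protein and an adaptor of mRNA export, was at 21.96, 22.96 and 21.25 TPM. These 3 genes were within their spread of one another except that Srsf1 was above Srsf3 in every library. The other detected SR genes were Srsf11 at 20.9 ± 7.86 TPM, Srsf7 at 18.5 ± 4.85, Srsf10 at 15.4 ± 2.80, Srsf6 at 13.8 ± 2.85 and Srsf4 at 11.0 ± 2.12 TPM (mean ± SD, n = 3), a run in which each gene overlapped the next.

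Among hnRNP genes, Hnrnpk (ENSMUSG00000021546.18, chr13:58391142-58403343, minus strand), a KH-domain protein that binds poly(C) tracts, was at 99.0, 197 and 96.5 TPM. Hnrnpf, which binds G tracts, was at 118, 130.3 and 126 TPM. Hnrnpa2b1 (ENSMUSG00000004980.16, chr6:51460932-51469894, minus strand), an RRM protein also known for RNA trafficking, was at 141, 110.0 and 105 TPM. Hnrnpa3, of the same subfamily, was at 123, 131 and 97.8 TPM. The ranges of these 4 overlapped, so their order is not fixed by the 3 libraries. Hnrnpl, which binds CA repeats, followed at 77.8, 134.5 and 74.8 TPM, and Hnrnpu, a chromatin-associated scaffold protein, at 86.8, 109.6 and 87.6 TPM. Lower in the family were Hnrnpab at 77.5 ± 5.58 TPM, Hnrnpa1 at 48.0 ± 5.89, the U-tract binder Hnrnpc at 47.5 ± 8.37, Hnrnpul1 at 41.1 ± 4.69, Hnrnpm at 40.0 ± 5.65 and Hnrnph2 at 37.3 ± 5.34 TPM. Hnrnpul2, Hnrnpdl, Hnrnph1, Hnrnpa0 and Hnrnpr had means between 27.1 and 11.9 TPM. The lowest were Hnrnpll, which in lymphocytes controls the splicing of Ptprc (CD45), at 8.79, 7.77 and 5.82 TPM, and Hnrnph3 at 5.20, 3.27 and 3.09 TPM, at percentiles 43.1 and 23.7 of the expressed genes.

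Some of these levels carry limits of their own. The TPM of Hnrnpk in replicate 2 stood apart, but its CPM were 340, 316 and 311, within 1.09-fold of one another. In replicate 2 the 522-base retained-intron transcript Hnrnpk-215 took 14.4% of the gene's read-based TPM, against 1.65% and 0.00% in replicates 1 and 3. Its part in the higher TPM was not tested. Hnrnpl was also highest in replicate 2 in TPM, but its CPM were 206, 207 and 162 in replicates 1 to 3. Hnrnpa3 was at 117 ± 17.4 TPM in the gene tables and at 20.2 TPM in the read-based tables, a ratio of 5.82 against the median of 2.06. One coding transcript, Hnrnpa3-207, was at 42.1 TPM in the alignment-based table and at 0.000221 TPM in the read-based one. Hnrnpa1, with a ratio of 2.66, and Hnrnpa3 are known to have many near-identical processed pseudogenes, so their counts are uncertain; the part of these in either ratio was not tested. The strand setting of the counting is not given here, so reads of genes that overlap on the other strand cannot be told apart.

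**Figure D2:**
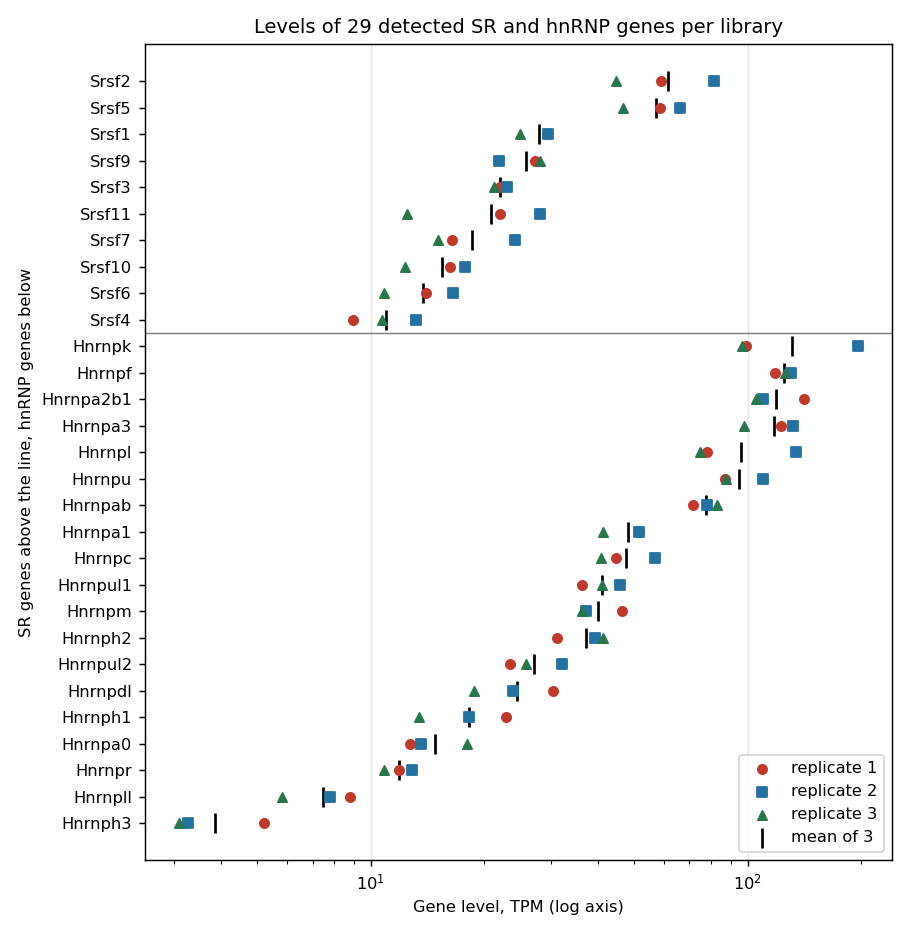
Level in TPM (log axis) of the 29 detected genes in each library, SR genes above the line and hnRNP genes below, each family ordered by its mean, with symbols for the 3 replicates and a bar for their mean. Srsf2 and Srsf5 lead the SR genes, 4 hnRNP genes have means above 100 TPM, and Hnrnpk and Hnrnpl stand apart in replicate 2 in TPM but not in CPM.

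NMD transcripts took more of these genes' signal than of coding genes in general. Of the summed read-based TPM of the 29 detected genes, 12.5%, 12.2% and 13.4% came from NMD transcripts in replicates 1 to 3, against 2.13%, 2.03% and 1.98% over 9550 protein-coding genes that had at least 20 estimated counts in each library and averaged 1 TPM or more. All 29 passed this filter. An NMD transcript was annotated for 18 of the 29 genes and for 2967 of the 9550. Genes without one add nothing to the NMD sum, so the contrast also carries this difference in annotation. For SR genes alone the pooled share was 16.0 ± 1.48% and for hnRNP genes 11.8 ± 1.14% (SD, n = 3). In shares of estimated counts this order turned, with 9.28 ± 1.55% for SR and 13.9 ± 0.308% for hnRNP genes, and the medians over single genes were 10.1 ± 0.860% for 9 SR and 19.0 ± 7.196% for 9 hnRNP genes. The order of the families is thus not fixed. Hnrnpu weighed on this total, which was 7.42 ± 0.62% without it. Gene by gene, the median share over the 18 genes with an NMD transcript was 11.0 ± 0.75%, against 3.44 ± 1.18% over 2967 protein-coding genes with one. A share of at least 20% was reached by 8 of the 18, beside 18.5% of the 2967 genes. These were Hnrnpu, Hnrnpdl, Srsf6, Srsf2, Hnrnpll, Hnrnpa1, Srsf3 and Hnrnph3. By alignment 5 of them reached it, beside 16.3%, and Srsf6 (18.1%), Srsf3 (19.0%) and Hnrnph3 (7.01%) did not. At the other end, 7 of the 18 were under 5%, where the median over the 2967 genes was 3.44%. The part of the 2967 genes under 5% is not given here. Spread over arrangements, the NMD transcripts with their own stop codon took 63.7 ± 1.75% of the genes' NMD signal and those ending at a coding stop 36.3 ± 1.75%. That order rests on Hnrnpu. Without it, transcripts with their own stop codon took 32.7 ± 2.97% and those ending at a coding stop 67.3 ± 2.97%.

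Hnrnpu had the highest share, with 70.5%, 79.8% and 85.8% of its read-based TPM from NMD transcripts in replicates 1 to 3, nearly all of it Hnrnpu-206 at 78.2 ± 7.41%. The alignment-based table gave 80.8 ± 3.56% and shares of estimated counts 66.5%. Hnrnpu-201 took 12.9 ± 0.824%. In all 3 libraries and in both tables the transcript labelled NMD was thus assigned the largest share of this gene. Hnrnpu-206 and Hnrnpu-201 have most of their exons in common, and reads across single junctions were not examined. Hnrnpdl, whose protein binds AU-rich RNA, had 55.6%, 47.9% and 67.5%, of which Hnrnpdl-201 made up 39.9 ± 7.81% of the gene and Hnrnpdl-205 17.1 ± 5.89%. The alignment-based share was 49.3 ± 9.08%.

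Srsf2 had 48.0%, 43.6% and 43.8%, all from Srsf2-204, and its alignment-based share was 51.8 ± 3.11%. The 3 libraries lay within 5 percentage points. Srsf2-204 is a 620-base transcript whose annotated start is incomplete, and all of its bases lie in exons of coding transcripts; it differs from the leading one by splicing within the 3′ untranslated region. Since TPM is per length, its share of the estimated counts was lower, at 18.9%. A further transcript with the same stop codon, Srsf2-206, is labelled protein coding although its stop codon ends 217 bases before the last junction, and it took 14.1 ± 2.81% of the gene.

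Srsf3 had 21.4%, 34.1% and 33.7%, from Srsf3-201 with the 456-base cassette exon printed above, and 19.0 ± 4.02% in the alignment-based table. Its leading coding transcript Srsf3-202, without that exon, took 54.5 ± 5.61%. Srsf6, an SR protein with a pair of RRM domains, had 37.8%, 59.2% and 51.7% from Srsf6-201. The alignment-based table gave 9.96%, 32.9% and 11.4% for Srsf6, below the read-based value in every library, so that the size of this share depends on the table. Hnrnpll had 35.8%, 40.3% and 41.0% from Hnrnpll-203 with its 83-base cassette exon, against 26.5 ± 0.626% by alignment.

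Hnrnpa1, the best known exon-silencing hnRNP, had 35.8%, 23.0% and 40.5%, mostly from Hnrnpa1-203, and 41.3 ± 2.19% by alignment. Hnrnph3 had 10.7%, 36.3% and 23.3%, with 7.01 ± 6.12% by alignment. Its level was the lowest of the family and its libraries were spread widest among these 8 genes. Srsf4 was at 14.98 ± 4.42% and Srsf11 at 10.1 ± 0.860%, with 6.51 ± 3.11% by alignment for Srsf11. The small spread of Srsf11 hides a change between its transcripts. Srsf11-206 took 0.753%, 7.29% and 9.32% of the gene in replicates 1 to 3, and Srsf11-210 8.27%, 1.62% and 0%. The other cassette exons printed above were rarer, with Hnrnpl-213 at 2.72 ± 0.808% of its gene and Srsf7-203 at 1.47 ± 0.871%. Hnrnpk was at 5.58 ± 2.85%, Hnrnpa2b1 at 3.90 ± 0.857%, and Srsf1, Srsf5, Srsf9 and Hnrnpr were at 1% or less.

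The label does not hold every transcript with a late junction. Hnrnpa2b1-202 is labelled protein coding, but its stop codon ends 157 bases before the last junction, the same distance as in the NMD transcripts Hnrnpa2b1-207 and Hnrnpa2b1-209, and it took 24.0%, 20.6% and 21.4% of the gene. Hnrnpa2b1-202 and Srsf2-206 were the only coding transcripts of the 129 with a stop codon ending more than 50 bases before the last junction, the distance commonly used to predict NMD. With such transcripts counted by that rule in place of the label, Hnrnpa2b1 had 25.9 ± 2.28% and Srsf2 59.3 ± 2.25%. The median over the 18 genes was 17.0 ± 1.58%, against 3.53 ± 1.18% over 3009 protein-coding genes with such a transcript. This rule was chosen after the values were seen.

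**Figure D3:**
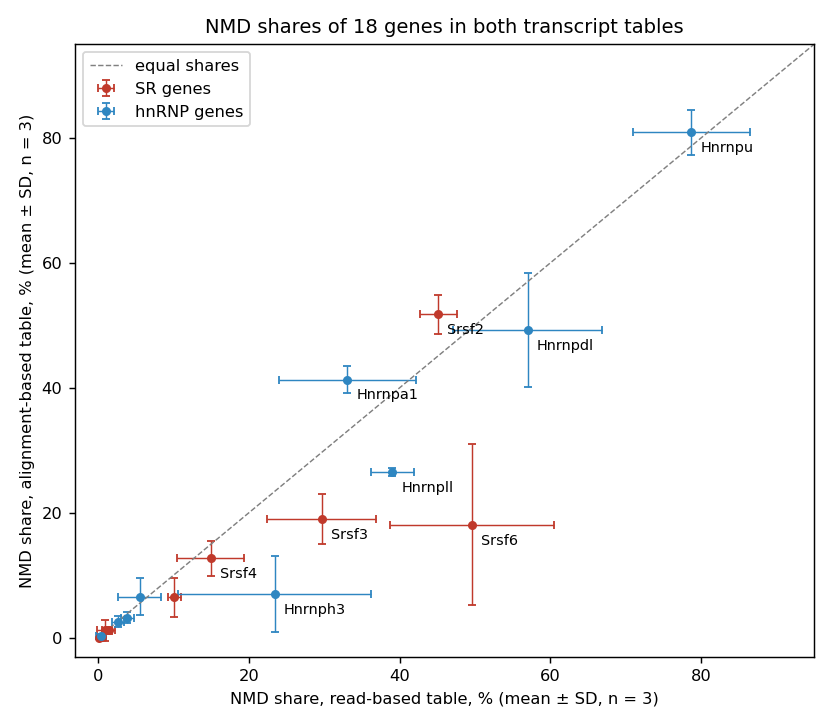
NMD share of the 18 genes with an annotated NMD transcript in the read-based table (x axis, % of the gene's TPM) against the alignment-based table (y axis, %), as means with SD over 3 libraries, red for SR and blue for hnRNP genes, with a dashed line for equal shares. Hnrnpu, Srsf2, Hnrnpdl and Hnrnpa1 are high on both axes, and Srsf6, at 49.6% against 18.1%, lies far below the line.

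Retained-intron shares differed between the libraries. Over the 29 genes they took 8.88%, 6.50% and 1.90% of the read-based TPM in replicates 1 to 3, against 5.76%, 4.21% and 3.34% over the 9550 protein-coding genes. Short transcripts weighed on replicate 2, where Hnrnpk-215 took 14.4% of Hnrnpk and Srsf11-211 took 47.1% of Srsf11. Without Srsf11 the summed shares were 7.88%, 5.21% and 1.64%. By gene, the median share over the 21 genes with such a transcript was 11.2%, 4.45% and 3.34%, against 8.29%, 1.99% and 1.60% over 5988 protein-coding genes. The share was highest in replicate 1 in 18 of the 21 genes, beside 79.6% of the 5988. It was highest in replicate 2 in the other 3 (Srsf11, Hnrnpk and Hnrnpc), beside 13.7%, and in replicate 3 in none, beside 5.06%. By alignment it was again highest in replicate 1 in 18 genes, beside 72.5%. These counts are close to the background of all genes. The NMD shares of the 18 genes with an NMD transcript were highest in replicates 1, 2 and 3 in 7, 4 and 7 genes. Such counts over all coding genes are not given here. The median NMD share was 10.2%, 11.7% and 11.2% over the 18 genes. Over 2967 protein-coding genes with an NMD transcript it was 4.73%, 2.42% and 3.18%, highest in replicate 1.

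In CPM, nuclear RNAs were ordered between the libraries as the summed retained-intron shares of the 29 genes were. Malat1, a noncoding RNA of nuclear speckles, was at 8331, 3481 and 1444 CPM in replicates 1 to 3. Neat1, the scaffold of paraspeckles, was at 924, 212 and 152 CPM. Xist, which coats the inactive X chromosome, was at 803, 42.3 and 23.1 CPM, and Rn7sk, the 7SK RNA, at 17581, 13714 and 10583 CPM. In CPM all 4 were highest in replicate 1 and lowest in replicate 3; in TPM Rn7sk was highest in replicate 2, at 80022, 95364 and 49192 TPM. Their part in the retained-intron shares was not tested.

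Srsf11, whose protein binds the splicing factor U2AF, had the highest retained-intron share, with 54.0%, 64.5% and 23.4%, and 45.4 ± 21.7% by alignment. The leading one of its 11 such transcripts, Srsf11-211, is 521 bases long, keeps no whole intron of the leading coding transcript and took 14.6%, 47.1% and 12.2% of the gene. The high value of replicate 2 was thus mostly from that short transcript. Hnrnpll had 41.4%, 15.9% and 8.07%, spread over 4 transcripts of which the highest, Hnrnpll-207, took 6.41 ± 4.72%. Hnrnph3 had 30.2%, 3.91% and 6.30%, with Hnrnph3-206 leading at 9.37 ± 7.48%. In both genes replicate 1 was far above the others.

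Srsf1 had 18.7%, 17.0% and 8.96%, nearly all from Srsf1-203, a 759-base transcript at 13.6 ± 4.26%, but its share of estimated counts was 3.09 ± 1.03%. Srsf3 had 19.1%, 8.33% and 4.25%, with Srsf3-204 leading at 5.76 ± 5.10%. Srsf5 had 16.3%, 4.47% and 3.68%, with Srsf5-212, which keeps a 1229-base intron, leading at 6.44 ± 4.90%. In each of these genes replicate 1 was the highest. Srsf2 had 9.65%, 5.43% and 3.34%, all from Srsf2-203, which keeps the 1059-base intron 2 of the leading coding transcript. Hnrnpa2b1 had 17.0%, 7.67% and 3.79%, and its leading such transcript, Hnrnpa2b1-208, keeps the 156-base intron 10 that follows the stop codon and took 7.14%, 3.47% and 1.61%. Hnrnpl had 11.2%, 4.65% and 3.45%, led by Hnrnpl-208. In these genes, too, replicate 1 was the highest and replicate 3 the lowest. A share of at least 20% was reached by 2 of the 21 genes, Srsf11 and Hnrnpll, beside 13.0% of the 5988. Of the 21 genes, 8 were under 5%, where the median over the 5988 genes was 3.96 ± 3.76%. The part of the 5988 genes under 5% is not given here. Of the 74 retained-intron transcripts, 25 cover a whole intron of the leading coding transcript. Introns of other coding transcripts were not checked for this, and such a count over all coding genes is not given here.

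**Figure D4:**
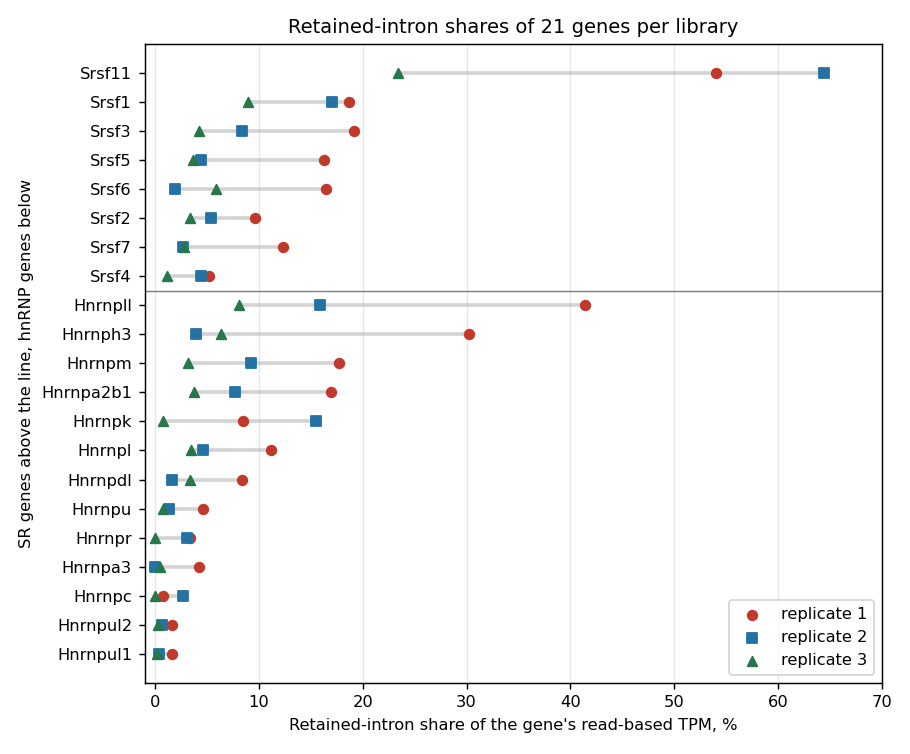
Retained-intron share (% of the gene's read-based TPM) of the 21 genes with an annotated retained-intron transcript, 1 symbol per library and a grey line over their range, SR genes above the line and hnRNP genes below. Replicate 1 is the highest in all but Srsf11, Hnrnpk and Hnrnpc.

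Taking both kinds together, NMD and retained-intron transcripts made up at least 50% of the mean read-based TPM in 6 of the 29 genes, beside 3.57% of 9550 protein-coding genes. Genes with neither kind annotated cannot reach this limit, and their part of the 9550 is not given here. The 6 genes were Hnrnpu (80.9 ± 5.77%), Hnrnpdl (61.5 ± 10.9%), Hnrnpll (60.8 ± 14.6%), Srsf6 (57.7 ± 3.40%), Srsf11 (57.4 ± 20.5%) and Srsf2 (51.3 ± 5.58%). By alignment 4 genes passed (Hnrnpu, Hnrnpdl, Srsf2 and Srsf11), and by shares of estimated counts 3 (Hnrnpu, Hnrnpdl and Hnrnpll), so Hnrnpu and Hnrnpdl alone passed in all 3. The share of all genes past this limit is given for read-based TPM only, so these 2 lower counts have no background beside them. Hnrnph1 stood apart in another way. It has neither kind annotated, but transcripts labelled processed transcript, which have no reading frame, took 70.2%, 40.8% and 37.2% of it, led by Hnrnph1-215 and Hnrnph1-212.

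**Figure D5:**
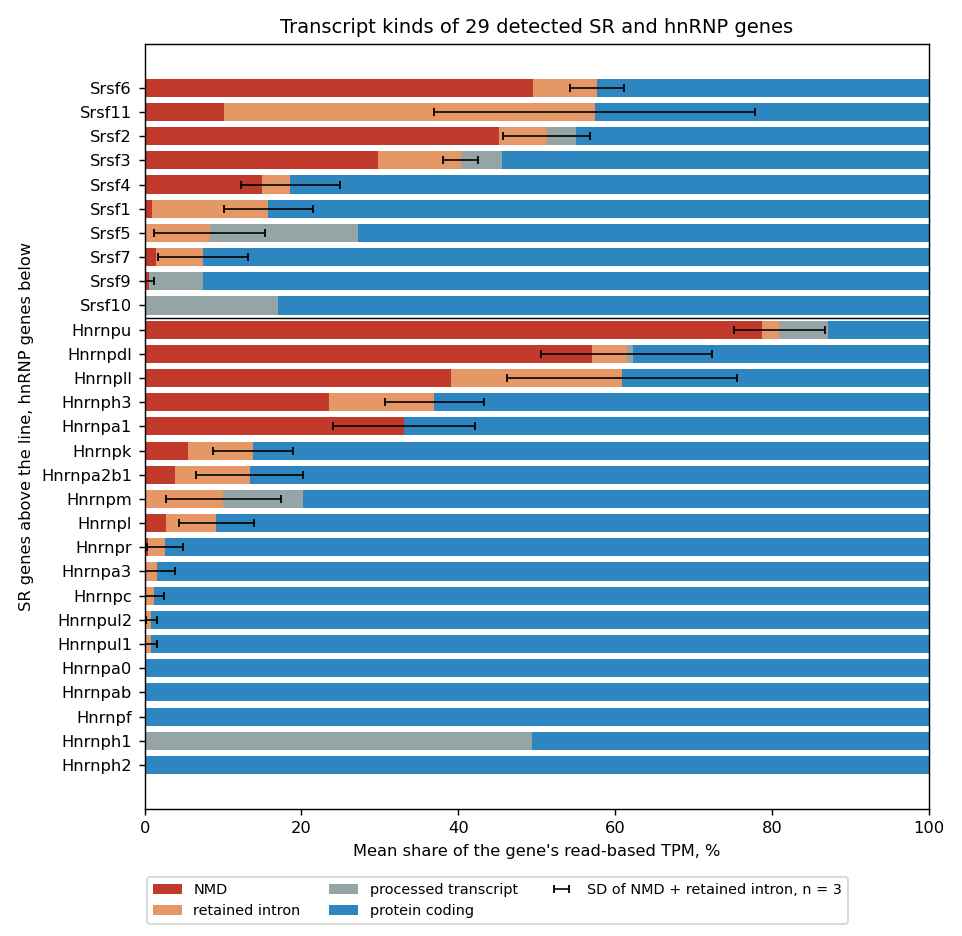
Mean share of each gene's read-based TPM (x axis, %) from NMD, retained-intron, processed and protein-coding transcripts for the 29 detected genes, SR genes above the line and hnRNP genes below, each family ordered by the sum of the first 2 kinds, with the SD of that sum over 3 libraries as the error bar. The sum exceeds 50% in Srsf6, Srsf11, Srsf2, Hnrnpu, Hnrnpdl and Hnrnpll, and Hnrnph1 has a large processed part.

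Gene counts also leaned to replicate 1. In CPM, 23 of the 29 genes were highest in replicate 1, beside 47.5% of 9595 protein-coding genes, and 3 each were highest in replicates 2 and 3, beside 30.3% and 22.3%. The lowest library was replicate 3 for 18 genes, beside 47.0%. In TPM the order of the libraries was another. The median over the 29 genes was 30.4, 32.2 and 28.1 TPM in replicates 1 to 3. Over the 9595 genes it was 8.34, 10.9 and 8.78 TPM. Protein-coding genes took 29.6%, 40.4% and 34.8% of all TPM, a difference that remains in TPM but not in CPM. In CPM, the median log2 ratio of a library to the mean of the others was 0.35, -0.15 and -0.27 over the 29 genes. Over all 9595 it was 0.09, -0.02 and -0.09. With TMM factors the ratios of the 29 genes were 0.21, -0.12 and -0.12, and with DESeq2 size factors 0.20, -0.10 and -0.13. The ratios of all 9595 genes with these factors are not given here. Hnrnph1, a G-tract binder, was the only one of the 29 with a range of at least 2-fold, beside 4.23% of the 9595, with 68.4, 38.6 and 31.9 CPM. Hnrnpll followed with 47.2, 29.2 and 25.9 CPM and Srsf11 with 78.0, 54.7 and 43.0 CPM, and all 3 were highest in replicate 1 and lowest in replicate 3. The retained-intron shares of Hnrnpll and Srsf11 and the processed-transcript share of Hnrnph1 were also lowest in replicate 3. Whether these go together was not tested. The steadiest were Srsf4, at 32.1, 33.0 and 33.1 CPM, and Hnrnpul2, at 214, 215 and 202 CPM.

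Other genes of the splicing machinery were read beside them. All 25 that were listed had at least 1 TPM in each library, at a median of 25.2 ± 4.22 TPM. In 23 of these 25 the retained-intron share was highest in replicate 1, beside 79.6% of coding genes. Of the 22 with an NMD transcript, 7 had a share of at least 20%, beside 18.5%. The kinase genes Srpk2 (44.4%), Clk2 (25.98%) and Clk1 (22.7%), whose products phosphorylate SR proteins, and Rbm39 (36.9%) also reached it by alignment, where 4 of the 22 did, beside 16.3%. The SR-related Tra2a and Tra2b and the kinase gene Clk4 were at 25.1%, 20.7% and 21.8%, but at 10.5%, 14.4% and 15.8% by alignment. Tra2b was at 13.2%, 13.4% and 35.5% in replicates 1 to 3, so that its mean rests on replicate 3. A retained-intron share of at least 20% was reached by 5, beside 13.0%, and by 3 by alignment, beside 10.6%. Clk3 (35.9%), Clk4 (33.2%) and Snrpa (21.9%) reached it in both tables, while Srpk1 and Clk1 were at 42.7% and 27.0% read-based and at 14.6% and 19.8% by alignment. The polypyrimidine-tract binder Ptbp1 was at 9.32% NMD and 2.77% retained intron. All 10 NMD factor genes were detected at a median of 8.62 ± 1.499 TPM, among them Smg1, the kinase of Upf1, at 17.1 TPM and Upf1 itself at 13.1 TPM.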

How the data were processed

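Total RNA-seq of the macrophage cytosolic fraction was analysed in 1 group of 3 libraries. The authors deposited, per library, gene and transcript tables with expected counts and TPM from alignments, and a transcript table with estimated counts and TPM from reads, per the file headers. The build is mm10, per the labels, and the transcript identifiers are those of GENCODE M21; the sources used here name no program, version or strand setting. Of 81881 identifiers in the gene tables, 55450 were matched to symbols; the others, at most 0.262% of counts, were left out.

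Levels are the deposited gene-table TPM. Shares are a transcript kind's part of the gene's read-based TPM, for genes with at least 20 estimated counts in each library and averaging 1 TPM or more. Ratios between libraries used expected counts scaled to 1000000 counts of protein-coding genes (CPM), offset 0.1. TMM factors (edgeR 4.0.16) and DESeq2 1.42.0 size factors, on rounded counts, were alternatives. Floors are 3 counts and cover counting error only. Python 3.11.15, pandas 2.3.3 and R 4.3.3 were used. The share calculation was tested on simulated counts already assigned to transcripts, which does not cover the assignment of reads to transcripts.

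The genes, lists and alternatives were chosen with earlier results of these data known. Values per library are given for Srsf2, Srsf3 and Hnrnpa2b1, the 5 highest genes of each family, the 5 highest NMD and the 5 highest retained-intron shares and the 3 widest ranges.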

Additional observations from a re-analysis of the deposited data

How the results depend on the processing

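Leaving out each replicate in turn gave 29 detected genes each time, a median level of 18.5 to 22.5 TPM for SR and 42.9 to 45.3 TPM for hnRNP genes, a difference of -1.19 to -0.98 on the log2 scale, a median NMD share of 10.7% to 11.4%, a median retained-intron share of 3.90% to 7.83% and 5 to 6 genes with a noncoding majority. The lowest retained-intron value, 3.90%, was without replicate 1. The log2 ratio of replicate 2 to the others was 0.087 without replicate 1 and -0.37 without replicate 3. That of replicate 1 was 0.37 to 0.42 and that of replicate 3 -0.42 to -0.087. With read-based TPM the medians were 10.4 TPM for SR and 19.8 TPM for hnRNP genes, and with TPM rescaled to protein-coding genes, a change of unit, 58.1 and 128 TPM. The median NMD share was 8.35% by alignment, 5.25% in estimated counts, 10.1% for genes averaging 5 TPM or more and 17.0% by the 50-base rule; a noncoding majority was found in 3 genes in estimated counts. No other median level, median share or count named in this section moved beyond its spread (counts: 1.5 times) under the alternatives run. The library ratios have no spread of their own. Single genes moved more often: with read-based TPM, 15 levels of named genes moved and 2 did not. Of 14 NMD shares of named genes, 6 moved by alignment and 7 in estimated counts; of their retained-intron shares, none and 3 (Srsf1 3.09%, Srsf2 10.3%, Srsf5 16.9%). The causes were not tested. No paired analysis was possible because there is 1 group. In all 3 scalings of counts (TMM factors, DESeq2 size factors and rescaled TPM) replicate 1 was above the others, at 0.20 to 0.35, and replicate 3 below them, at -0.32 to -0.12. Depth limits Srsf12 and Hnrnph3 most; Hnrnph3 had 122 expected counts in replicate 2.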
